A study of Mus musculus with 7 samples.

Results

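The regions described here are the peaks of the LacZ control pull-down that lie outside Ttn, the gene of the giant sarcomere protein titin. They were chosen by position alone, as every peak of the LacZ list except those on the minus strand of chromosome 2 that overlap bases 76700000 to 76985000 of GRCm38. This left 210 of 336 LacZ peaks (62.5%, 95% Wilson interval 57.2% to 67.5%), and the other 126 lay in Ttn. The nearest LacZ peak on that strand, in Fkbp7, was 27000 bases away from the excluded stretch, so no peak sat at its edge.

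All libraries came from C2C12, a line of mouse myoblasts that differentiates into myotubes in culture, harvested on day 2 of differentiation. The pull-down part comprised 1 library captured with 5 biotinylated DNA probes against the bacterial LacZ mRNA, 1 captured with probe set #1 against the long non-coding RNA lnc-SMaRT and 1 input library. Total RNA of cells given a scramble siRNA (si-SCR, 2 samples) or an siRNA against lnc-SMaRT (si-SMaRT, 2 samples) was sequenced separately and supplied the RPKM values, that is, reads scaled for gene length and library size. Since each pull-down was 1 library, peaks had no replicate, no difference between the lists could be tested, and the intervals below cover counting error only and treat the peaks of 1 gene as if they were independent. All 8 fixed muscle markers had an RPKM row, from 54.8 to 3240 over the samples, and 6 of 9 markers of other cell types had none. Among the other 3, Dcn, a matrix proteoglycan, ranged from 55.7 to 148.

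In an antisense pull-down, biotinylated oligonucleotides pair with a target RNA in a cell extract and streptavidin beads then retain the oligonucleotides with whatever is bound to them. Mouse cells have no LacZ, so RNA recovered with LacZ probes is the background of the assay: RNA that sticks to beads or tubes, abundant RNA, and RNA that pairs by chance with a probe. Peaks of such a control show which transcripts that background holds. Each peak here is a run of 1 or more bins of 200 bases in which the peak caller Piranha found more reads than its model allows, and its p-value comes from that model. A peak can therefore extend past the exon that it touches.

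The sequences that follow come from mRNAs with many control peaks and from peaks with a repeated sequence, which together do not make up the whole list. The first set gives sites of the 4 host genes with the longest stretches complementary to a LacZ probe and 3 or more peaks, and of Hnrnpm, whose site lies opposite another probe. Each is written 5′ to 3′ on the strand of the gene (RefSeq GRCm38.p6), with the bases complementary to the probe in capitals.
Dpp8, probe 1, chr9:65082131-65082158, plus strand: tagttgTGTTACTCGCTCACAgcattct
Sp1, probe 3, chr15:102409091-102409118, plus strand: tagttctcAAGGCCAGACGCcccagagg
Gabarapl1, probe 3, chr6:129533364-129533391, plus strand: ctgggggtGGCCAGACGCGAgacgcagt
Mtdh, probe 3, chr15:34140734-34140761, plus strand: agaagaaaAAGGCCAGACGggaaacgtg
Hnrnpm, probe 5, chr17:33665553-33665580, minus strand: agcagacatTCTGGAAGATaaagatggg

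The second set gives stretches that recurred among distant peaks, each from 1 copy on the strand of its peak and with the shared bases in capitals. The longest stretch sought was 28 bases.
Family 1, held by 6 peaks, chr2:13878979-13879000, minus strand: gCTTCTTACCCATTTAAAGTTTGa
Family 2, held by 8 peaks, chr1:113904077-113904104, plus strand: aCCAAGCCCGTTCCCTTGGCTGTGGTTTCg
Family 3, held by 4 peaks, chr1:122357166-122357193, plus strand: cGTATTTAGCCTTAGATGGAGTTTACCACc
Family 4, held by 2 peaks, chr6:3201447-3201474, minus strand: tGATTAATGAAAACATTCTTGGCAAATGCt

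Most control peaks lay on exons of a small number of mRNAs. An exon on the same strand was touched by 145 of the 210 peaks (69.0%, 95% Wilson interval 62.5% to 74.9%), 22 (10.5%, 7.02% to 15.4%) lay in introns only and 43 (20.5%, 15.6% to 26.4%) lay outside annotated genes. Of the exonic peaks, 122 (84.1%) touched coding exons, 15 (10.3%) lay in 3′ UTRs, 6 lay on exons of non-coding genes and 2 on other exons of coding genes. The lnc-SMaRT peaks outside Ttn were on exons in 120 of 145 cases (82.8%, 75.8% to 88.0%), in introns only in 8 and outside genes in 17. Counting a peak as exonic only where at least 50% of its bases lie on exons left 90.

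The peaks were concentrated in few genes. They fell in 51 host genes, 26 of which held 2 or more peaks and 17 of which held 3 or more. The 12 genes with 5 or more peaks together held 106 of 210 peaks (50.5%, 43.8% to 57.2%), and the 17 with 3 or more held 124 (59.0%). Single bins made up 159 peaks (75.7%), against 109 of 145 (75.2%) of the lnc-SMaRT peaks outside Ttn.

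**Figure D1:**
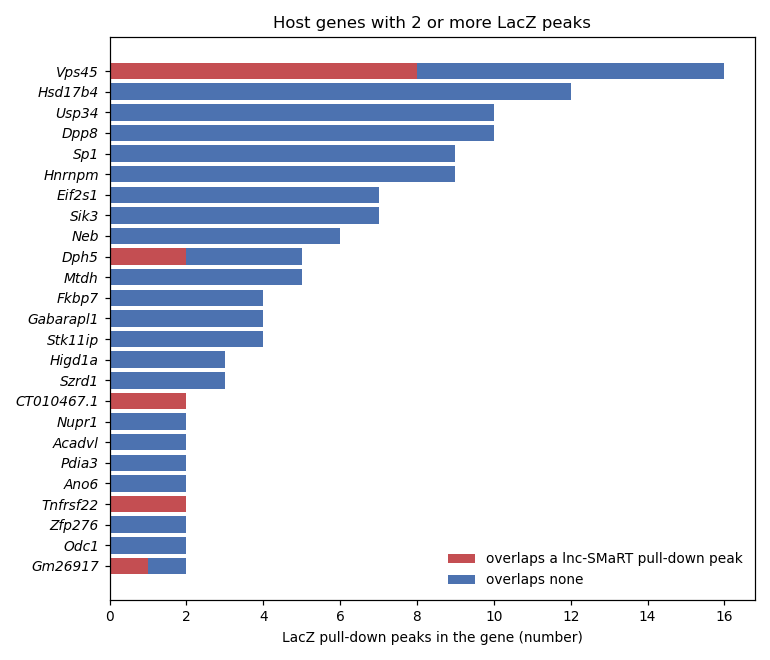
Number of LacZ pull-down peaks (x axis) in 25 of the 26 host genes with 2 or more (y axis), with peaks that overlap a lnc-SMaRT pull-down peak in red and the others in blue. Vps45 has 16 peaks and 8 of them are shared, whereas Hsd17b4, Usp34 and Dpp8 have 10 to 12 peaks and none shared.

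Vps45, whose product acts in vesicle fusion at endosomes, held the most peaks, 16, at chr3:95999801-96057000. Of these, 9 were on exons and 7 in introns only, and the widest spanned 3800 bases at chr3:96042601-96046400. The exonic peaks covered 56.4% of its coding bases and 11 of 15 exon blocks, where a block is a run of overlapping exons of all its transcripts. Its exonic peaks were shared with the lnc-SMaRT list in 8 of 9 cases, and its intronic peaks in 0 of 7. The gene was not highly expressed, at 7.60 and 6.84 RPKM in si-SCR and 4.82 and 6.005 in si-SMaRT, which is close to the median of all rows in si-SCR, 6.91.

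The other genes with many peaks encoded proteins of unrelated roles. Hsd17b4, a peroxisomal enzyme of fatty acid oxidation, held 12 peaks on 12 of its 24 exon blocks, which covered 47.4% of its coding bases and 0% of its 3′ UTR. Usp34, a large deubiquitinase, held 10 peaks, all between 58.4% and 94.8% of the length of its merged exons, counted from the 5′ end. Dpp8, a cytosolic dipeptidyl peptidase, held 10 peaks that covered 40.6% of its coding bases and 55.5% of its 3′ UTR.

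Sp1, a zinc finger transcription factor that binds GC boxes, held 9 peaks over 98.5% of its coding bases and 32.9% of its 3′ UTR, and the lowest p among them was 7.87e-11. Hnrnpm, a splicing regulator, held 9, all on coding exons. Eif2s1, the alpha subunit of the initiation factor that brings the initiator tRNA to the ribosome, and Sik3, a kinase of the salt-inducible family, held 7 each.

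In a few mRNAs the peaks covered most or all of the coding sequence. Gabarapl1, an autophagosome protein, had only 4 peaks, but they touched 5 of 5 exon blocks and 90.9% of the exonic bases, with 100% of the coding sequence. Fkbp7, a peptidyl-prolyl isomerase of the endoplasmic reticulum, had 4 peaks over 87.9% of its coding bases, the lowest with a p of 2.37e-10. Higd1a, a mitochondrial protein induced by hypoxia, had 3 peaks over 100% of its coding bases and 3.35% of its 3′ UTR, and 20.8% of all its exonic bases were under peaks.

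The long sarcomere gene Neb, which encodes the thin filament ruler nebulin, stood at the other end. Its 6 peaks covered 1.51% of its coding bases, on 6 of 166 exon blocks, and all lay between 68.5% and 89.6% of its merged exons. Over the 17 genes, the median share of coding bases under peaks was 40.6% (range 1.51% to 100%), and that of the 3′ UTR was 9.54% (0% to 100%). In 12 of the 17 the coding share was the larger.

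**Figure D2:**
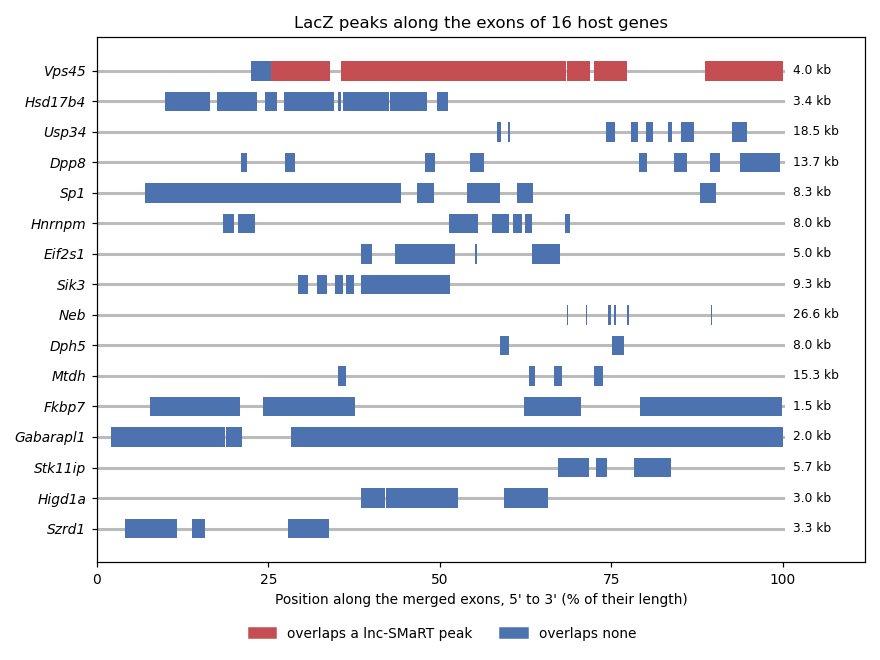
Positions of LacZ peaks along the merged exons of 16 of the 17 host genes with 3 or more peaks, from 5′ to 3′ as a percentage of exon length, which is printed at the right in kb; red peaks overlap a lnc-SMaRT peak and blue peaks do not. Peaks fill 90.9% of the exonic bases of Gabarapl1 and only thin slices of Neb, and red appears in Vps45 alone, since the shared peaks of Dph5 are intronic.

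Few control peaks were also found with the lnc-SMaRT probes, in a list that may have been called against input or against LacZ. A lnc-SMaRT peak overlapped 35 of the 210 by at least 1 base on the same strand (16.7%, 95% Wilson interval 12.2% to 22.3%), and these were matched by 34 of 145 lnc-SMaRT peaks outside Ttn (23.4%, 17.3% to 31.0%). Inside Ttn the share was 123 of 126 LacZ peaks (97.6%, 93.2% to 99.2%). With only peaks of a p under 0.001 in both lists, 17 shared peaks remained.

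The multi-peak mRNAs were nearly all on the LacZ list alone. In the 17 genes with 3 or more peaks, 10 of 124 peaks (8.06%) were shared, 8 in Vps45 and 2 in introns of Dph5, which encodes an enzyme of diphthamide synthesis on elongation factor 2. Without these 2 genes the count was 0 of 103 (upper limit of the Wilson interval 3.60%). The other 15 genes held no lnc-SMaRT peak at all, on exons or in introns. Leaving out the peaks in Vps45 lowered the shared peaks from 35 to 27.

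Of 39 genes with an exonic LacZ peak, 10 also had an exonic lnc-SMaRT peak, which is 25.6% of these genes and 14.5% of the 69 genes with an exonic lnc-SMaRT peak outside Ttn. These were Vps45, Dph5, Tnfrsf22, Rpia, Ankrd1, Tpm1, Hspa8, Rmrp and a pair of non-coding genes of 1 locus on chromosome 17, Gm26917 and CT010467.1. Rmrp is the RNA of the RNase MRP complex, Hspa8 a constitutive chaperone, and Tpm1 a tropomyosin of the thin filament. CT010467.1 is annotated as an rRNA gene, and its 2 peaks (p of 2.83e-11 and 2.39e-08) were both shared.

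Peaks outside genes were marked by repeated sequence. Words of 20 bases outside repeat-masked sequence were compared between peaks more than 10000 bases apart, on either strand. Of the 43 peaks outside genes, 39 (90.7%, 95% Wilson interval 78.4% to 96.3%) shared a word with a distant peak, as did 9 of 22 intronic peaks (40.9%) and 3 of 145 exonic peaks (2.07%, 0.706% to 5.91%). These 51 peaks formed 8 families and lay on 19 chromosomes. Only 12 of them were in a gene on their own strand.

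The printed stretches had few copies in the assembled chromosomes. Repeat-masked bases had been left out of the words, so masked repeats could not form a family, and copies were counted for a single stretch per family. The largest family had 23 peaks on 13 chromosomes, joined through different words. Its stretch of 22 bases printed above was present in 17 copies on 14 chromosomes of the genome. The second had 12 peaks on 9 chromosomes. Its 28-base stretch had 10 copies in the genome, and 8 peaks held it. The 28-base stretch of family 3 had 5 copies, and 4 peaks held it. Of the pairs of peaks with a common word, 115 held it in the same orientation relative to the peak and 11 in the opposite one.

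Named loci gave some members of these families an address. A peak of family 2 at chr5:114851801-114852200 lay opposite an exon of Mir6240. A peak of family 1 at chr9:110281201-110281400 lay opposite Mir6236. Another of family 1, at chr9:123462001-123462200, lay opposite an exon of Lars2, the mitochondrial leucyl-tRNA synthetase, and was shared with the lnc-SMaRT list. Family 4 included 1 of the 2 peaks on the annotated rRNA gene CT010467.1, and the other belonged to another family. The families were not compared with full-length rRNA sequences, so whether they derive from rRNA was not tested. At chr16:35981601-35981800 both strands had a peak, in an intron of Kpna1, an importin, with the lowest p of the list, listed as 0, and on an exon of Gm15564 on the other strand with a p of 0.00428.

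These peaks also had the lowest p-values. Their median p was 8.59e-06 over the 51, against 0.00113 over the 159 that shared no word. All 7 peaks with a p under 1e-12 and 18 of 23 (78.3%) with a p under 1e-06 shared a word. The exceptions among named genes were Nupr1, a stress-induced nuclear protein, with a lowest p of 3.73e-11, and Sp1, Fkbp7, Hnrnpm and Hsd17b4, whose lowest p was 9.46e-07. Of the 13 intronic peaks that shared no word, 10 were in Vps45 or Dph5.

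**Figure D3:**
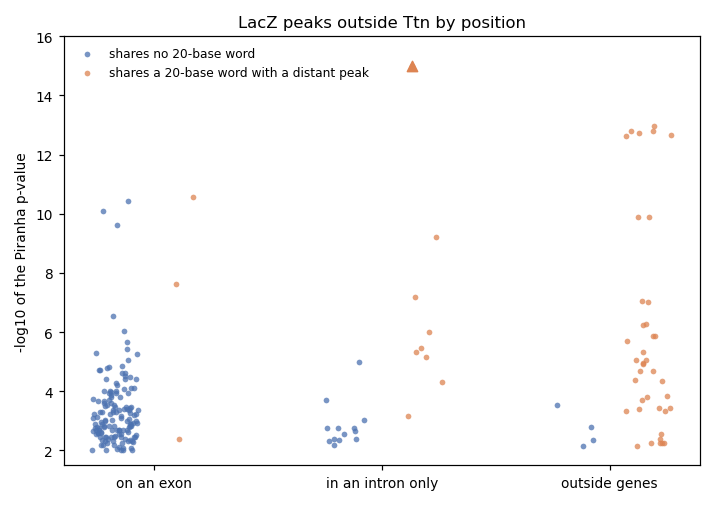
Piranha p-value of each LacZ peak outside Ttn, as -log10 (y axis), by position on an exon, in an intron only or outside genes; orange points share a 20-base word with a distant peak, blue points do not, and the triangle is the peak listed at a p of 0, drawn at 15. The orange points are mostly outside genes and take the top of the plot, and most exonic points are blue and lie below 6.

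Both lists held such sequence. Of the 51 peaks with a shared word, 15 (29.4%, 18.7% to 43.0%) overlapped a lnc-SMaRT peak, against 20 of 159 others (12.6%, 8.29% to 18.6%). A word of the largest family was held by 5 of the 145 lnc-SMaRT peaks outside Ttn (3.45%). Among the 111 lnc-SMaRT peaks outside Ttn that overlapped no LacZ peak, 0 held a word of these families (upper limit 3.35%). These 111 were picked for lacking that overlap, and most genome copies of the printed stretches of families 2 and 3 lay under LacZ peaks. The 0 was therefore nearly fixed in advance. Within the lnc-SMaRT list itself, 12 of 145 peaks outside Ttn (8.28%) shared a word with a distant one, against 51 of 210 (24.3%) in the LacZ list. The authors had removed multi-mapped reads, and the part of near-identical copies in these peaks was not tested.

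The sequence of the control peaks was next set beside that of the probes, a comparison added after the data were seen where it goes beyond the peaks to whole transcripts. Over all annotated transcripts of a gene, the longest stretch exactly complementary to any of the 5 LacZ probes (19 to 20 bases long) had a median of 8 bases in 10481 genes with an RPKM row of their own. In the 16 such genes with 3 or more control peaks the median was 10. Stretches of 10 or more bases were found in 10 of these 16 (62.5%) and in 1296 of all 10481 genes (12.4%). Stretches of 12 or more were found in 3 of 16 (18.8%) and in 0.668% of all genes. Over all 33 such genes with an exonic control peak the contrast was smaller. Their median was 9 bases, with 10 or more in 14 (42.4%) and 12 or more in 3 (9.09%).

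The gene with the longest stretch of all 10481 was Dpp8, with 15 bases, followed by Ciapin1, with 14 bases and no peak. The next 14 genes, with 13 bases each, also held no peak. The site of Dpp8 lay under one of its 10 peaks. The sites of 12 bases in Sp1 and Gabarapl1 also lay under peaks, which cover 49.4% and 90.9% of the exonic bases of these genes. The site of 11 bases in Mtdh, a membrane protein also known as metadherin, was 649 bases from its nearest peak.

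Over the 17 genes with 3 or more peaks, Hnrnpm included, 11 had 1 or more sites of at least 10 bases, 12 sites in all, and 6 of the 12 were under a peak. Hsd17b4, Vps45, Fkbp7, Sik3, Szrd1 and Higd1a had none, with longest stretches of 7 to 9 bases. Vps45, the gene with the most peaks and the most shared ones, was among these, at 8 bases.

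The sites came from few of the probes. Probe 3 had a stretch of 10 or more bases in 5 of the 16 genes (31.2%) and in 2.08% of all 10481, and probe 5 in 5 of 16 (31.2%) and 5.95%. Probe 1 had 1 (6.25%, against 1.79%), and probes 2 and 4 had 0, against 2.05% and 1.39% of all genes. The capitals of Sp1, Gabarapl1 and Mtdh above share the core of the probe 3 site.

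The probes of lnc-SMaRT set #1 served as a comparison on the same genes. They had a stretch of 10 or more bases in 7 of the 16 genes (43.8%) and in 28.9% of all genes, and of 12 or more in 0 of 16 and 2.24%. Transcripts of the 16 were somewhat longer, with a median longest transcript of 4270 bases against 3427, and longer transcripts hold more matches. The part of length and of pairing with the probes in the peaks was not tested.

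**Figure D4:**
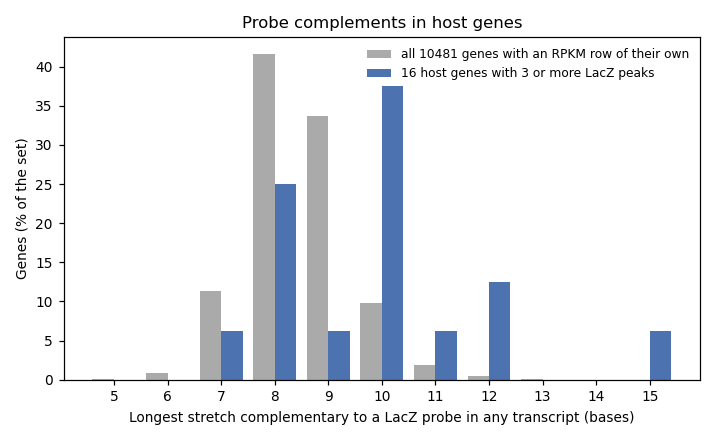
Longest stretch complementary to a LacZ probe in any transcript of a gene (x axis, bases) as a share of genes (y axis, %), for all 10481 genes with an RPKM row of their own in grey and for the 16 of them with 3 or more LacZ peaks in blue. The blue bars are tallest at 10 bases and the bar at 15 is Dpp8, whereas the grey bars are tallest at 8.

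The same comparison was made within the peaks. Of the 228 bins of exonic peaks, 7 (3.07%, 95% Wilson interval 1.495% to 6.20%) held a stretch of 10 or more bases, against 0.466% of 435616 bins on exons of genes with an RPKM row and 1 of 193 bins of lnc-SMaRT-only peaks. In bins of peaks in introns or outside genes the count was 0 of 79. The median longest stretch was 6 bases in each of these sets.

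Base composition differed little. The median GC content was 48.0% over the 307 bins of the control peaks, 49.0% over bins of lnc-SMaRT-only peaks and 47.0% over exon bins. Bins of peaks in introns or outside genes were at 50.5% and those of exonic peaks at 45.8%. A G-quadruplex motif, 4 runs of at least 3 G with 1 to 7 bases between them on the strand of the peak, was found in 4 of 307 bins (1.30%), 3 of 193 bins of lnc-SMaRT-only peaks (1.55%) and 2.51% of exon bins.

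Most host genes were expressed above the middle of the table. The 37 exonic hosts with an RPKM row had a median of 26.7 RPKM in si-SCR, with quartiles of 8.29 and 76.9, against 6.91 over all 11642 rows, with quartiles of 2.39 and 18.3. In all, 30 of the 37 (81.1%) were above the median of all rows. Of the 100 rows with the highest si-SCR values, 4 (4%) held an exonic control peak, against 37 of all 11642 rows (0.318%).

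The most abundant hosts held 1 or 2 peaks. Rmrp had 1 peak, over 18 of its 281 bases, and 50234 and 43722 RPKM in si-SCR, the row with rank 2 in the table. Gm26917, a non-coding gene of the chromosome 17 locus, had 2 peaks and 2372 and 2939 RPKM. Rps15, of the small ribosomal subunit, had 1 peak and 1443 and 1300 RPKM. Genes with many peaks varied widely in expression. Sik3, with 7 peaks, was at 1.91 and 2.78 RPKM in si-SCR, and Dph5, with 5, at 4.27 and 3.93. Eif2s1, also with 7 peaks, was at 84.6 and 69.3, and Neb, with 6, at 67.5 and 91.6.

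Of 7 listed gene groups, 3 held control peaks, each in 1 or 2 genes, while 0.318% of all rows held an exonic peak. These 3 groups had medians well above the 6.91 RPKM of all rows, and a share matched for expression was not computed. Among 42 genes of the contractile apparatus with an RPKM row, whose median was 75.8 RPKM, 2 held peaks (4.76%), Neb with 6 and Tpm1 with 1. Of 71 genes of ribosomal proteins and translation factors, whose median was 590.1 RPKM, Rps15 held one (1.41%). Of 13 abundant non-coding RNAs, whose median was 69.9 RPKM, Rmrp did (7.69%). The 9 genes of the biotin-dependent carboxylases and their ligase, the 30 membrane, matrix and calcium genes, the 21 of the non-muscle cytoskeleton and the 19 myogenic regulators held 0, in lists too short for a share of 0.318% to give a peak. In limma between si-SMaRT and si-SCR, 1 of 41 contractile genes tested was lower, the myosin-binding protein gene Mybpc2 (log2 difference -1.89, adjusted p = 0.0400), and 1 of 19 myogenic regulators was higher, Id3 (1.60, adjusted p = 0.0232). Neither held a peak, and 0 genes of the other 5 lists passed.

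No host gene passed the test between cells with and without depletion of lnc-SMaRT. By limma on log2(RPKM + 0.1), 0 of 45 host genes tested passed an adjusted p of 0.05 (Benjamini-Hochberg over 11086 genes), while 0.505% of all genes tested did. At an unadjusted p under 0.05 there were 3 hosts, and 1008 of all genes. The si-SCR and si-SMaRT values did not overlap in 20 of 45 hosts, and they did not overlap in 40.7% of all genes tested. The median log2 difference (si-SMaRT minus si-SCR) was -0.02 over the hosts and 0.02 over all genes. Without si-SMaRT replicate 1, 11 of 45 hosts (24.4%) and 26.3% of all genes tested passed, and without si-SMaRT replicate 2, 3 hosts (6.67%) and 8.5% of all genes did, so in both fits the share of hosts was near that of all genes. In bulk RNA, fewer cells of a type and less RNA per cell cannot be told apart.

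Stk11ip, which encodes a partner of the kinase LKB1 and held 4 peaks, had the lowest adjusted p. Its values were 7.05 and 6.69 RPKM in si-SCR and 4.04 and 2.80 in si-SMaRT, so the groups were apart, with a log2 difference of -1.01 (SE 0.29; limma adjusted p = 0.174). Rmrp was at 33186 and 16146 RPKM in si-SMaRT, both below si-SCR, with a log2 difference of -1.02 (SE 0.42; limma adjusted p = 0.441). This difference was -0.50 or -1.54 with si-SMaRT replicate 2 or 1 left out. It was 0 under quantile normalization. That method gives rows of the same rank the same value in every sample, so for a row this high in the table the 0 says little about the difference. Acadvl, a mitochondrial acyl-CoA dehydrogenase with 2 peaks, was at 83.1 and 73.2 RPKM in si-SCR and 59.3 and 41.6 in si-SMaRT (limma adjusted p = 0.461).

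Of the mRNAs with the longest probe complements, Dpp8 and Gabarapl1 were close to level. Dpp8 was at 30.02 and 30.6 RPKM in si-SCR and 26.7 and 35.0 in si-SMaRT, with a log2 difference of 0.01 (SE 0.27). Sp1 was at 14.9 and 15.4 in si-SCR and 15.8 and 21.03 in si-SMaRT, with a log2 difference of 0.27 (SE 0.27). Its groups did not overlap, as in 40.7% of all genes tested. Mtdh was at 42.7 and 44.7 in si-SCR and 41.6 and 60.4 in si-SMaRT, with a log2 difference of 0.20 (SE 0.27). Gabarapl1 was at 27.0 and 25.7 in si-SCR and 27.7 and 24.5 in si-SMaRT. Hsd17b4, whose longest complement was only 9 bases, was at 20.2 and 22.3 in si-SCR and 22.7 and 19.7 in si-SMaRT. In Dpp8, Gabarapl1, Mtdh and Hsd17b4 the 2 si-SMaRT samples enclosed the si-SCR values.

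**Figure D5:**
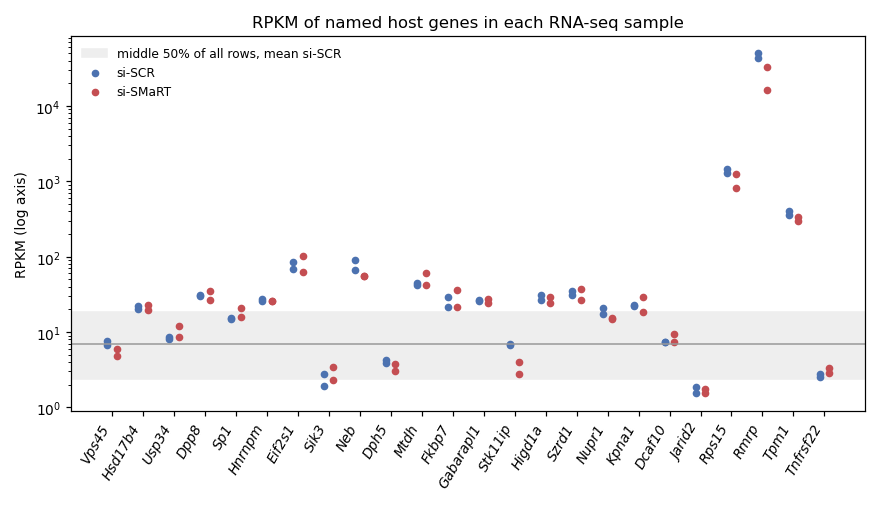
RPKM (log axis) of named host genes with an RPKM row in the 2 si-SCR (blue) and 2 si-SMaRT (red) samples, with the grey band marking the middle 50% of all rows in si-SCR and the line their median of 6.91. Most genes with many peaks lie within or somewhat above the band, while Rmrp, Rps15 and Tpm1, with 1 peak each, lie far above it.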

How the data were processed

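Per the labels, the study's methods and the deposited files, the authors removed mitochondrial, duplicate and multi-mapped pull-down reads and called peaks with Piranha in bins of 200 bases. The deposited lists hold each peak's position (GRCm38) and p-value, with no depth. The study lists read numbers per pull-down library. After duplicate and multi-mapped reads were removed, the LacZ and lnc-SMaRT libraries kept a small part of their reads, far fewer than the input. The part of this depth in the peaks and their sharing was not tested. LacZ peaks were called with the input reads as covariate; for the lnc-SMaRT list, the sources used here give both an input and a LacZ comparison and not which one was deposited. The RPKM values were computed by the authors with edgeR from TMM-normalized counts. The deposited RPKM values come without counts, but the study lists mapped read pairs of each sample. They were fewest in si-SMaRT replicate 1, which also lost the largest share of its pairs to rRNA and tRNA filtering. The commonest ratio of low RPKM values to the first si-SCR sample was 0.884 to 1.12, so 1 read was worth about the same in all 4 samples.

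Here, each LacZ peak was assigned on its strand to 1 gene of GENCODE mouse release 21, exon before intron, then protein-coding, then most exonic bases. Overlaps used bedtools 2.31.1. RPKM rows were matched by symbol or older symbol (45 of 51 hosts); rows of 5 hosts, such as Hnrnpm, join several symbols. limma 3.58.1 (R 4.3.3; lmFit, eBayes with trend, two-sided) compared 2 si-SMaRT with 2 si-SCR samples on log2(RPKM + 0.1) at a mean of at least 0.5 RPKM, without a block. The samples of each group came from separate cell populations, per the study, and p-values measure the spread between them. On simulated data with 11086 genes, 65 of 100 genes changed by 2 log2 units and 85 of 100 changed by 3 were recovered, with 4 false calls.

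Named genes were hosts with 3 or more peaks, the 10 hosts with the lowest p, list genes with a peak and hosts with 2 or more shared peaks; others were named after their values were seen. The members and gene lists were chosen with earlier results of these data known. Shared words and whole-transcript probe complements were added after the data were seen. Probe sequences came from the study's oligonucleotide list. The input library was not analysed here. The level of lnc-SMaRT itself was not analysed here. One host gene and one repeated stretch are not reported here.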

Additional observations from a re-analysis of the deposited data

How the results depend on the processing

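The peak counts depended on how a peak was placed and on its p. With p under 0.001, 74 peaks were exonic, 12 were in introns only and 17 were shared with the lnc-SMaRT list. Requiring at least 50% of the bases on exons gave 90 exonic and 77 intronic peaks. With either strand, 24 lay outside genes. Runs of 2 G gave 73 peaks with a G-quadruplex motif, against 5 with runs of 3 G. The longest complement under a peak was 15 bases for LacZ probes and 10 for set #1. Without the peaks that share a word (added after seeing the data), 13 lay in introns, 4 lay outside genes and 20 were shared. The median RPKM of all hosts was 25.2, 24.6 to 25.9 without either si-SCR replicate and 26.7 for exonic hosts alone.

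In limma, 45 hosts were tested, 39 with the GC correction and 38 with a filter at 5 RPKM. The GC correction called 1, Stk11ip (log2 difference -0.87, adjusted p = 0.0232). Leaving out a replicate called 0 to 11 hosts: 0 without either si-SCR replicate, 11 without si-SMaRT replicate 1 and 3 without si-SMaRT replicate 2. In these fits the lone sample is assumed to vary like the other group. All genes called numbered 56, and 23 to 2911 with a replicate left out, 421 after the GC correction, 96 with the replicate block. The replicate block called 0 hosts. Pseudocounts of 1 and 0.01, no filter, a filter at 5 RPKM and quantile normalization also called 0 hosts, and 37 to 69 of all genes. Same-numbered samples deviated in opposite directions (r = -0.36), so a crossed pairing was added after seeing the data; it called 3 of 45 hosts (6.67%) and 487 genes (4.39%). Stk11ip was lower in every fit, with adjusted p from 1.6e-06 without si-SMaRT replicate 1 to 0.999984 without si-SCR replicate 1.

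Differences near 0 changed sign in 12 named hosts. Quantile normalization gave 0.013 for Hsd17b4 and 0.018 for Gabarapl1. The GC correction gave -0.095 for Dpp8, -0.098 for Eif2s1, 0.055 for Gabarapl1, 0.066 for Szrd1 and -0.083 for Kpna1. With a replicate left out, the log2 difference ranged over -0.11 to 0.097 for Hsd17b4, -0.11 to 0.074 for Gabarapl1, -0.18 to 0.21 for Dpp8, -0.31 to 0.41 for Eif2s1, -0.30 to 0.19 for Szrd1, -0.28 to 0.39 for Kpna1, -0.24 to 0.055 for Higd1a, -0.091 to 0.0023 for Hnrnpm, -0.22 to 0.51 for Fkbp7, -0.17 to 0.089 for Jarid2, -0.069 to 0.47 for Mtdh and -0.012 to 0.36 for Dcaf10.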
